A study of Mus musculus with 9 samples.

Results

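Untreated corneas of Aire knockout mice were compared with wild-type corneas across all expressed genes, in the 5 untreated bulk RNA-seq libraries of a series of 9. The libraries were chosen by their labels alone: 2 are labelled as untreated Aire knockout (KO) and 3 as untreated wild type (WT). The other 4, knockout corneas given PBS, did not enter the filter, the scaling or the error estimate. Sample titles give an age of 5 weeks for both groups, while the design text of the series places the corneas at 6 weeks of age and day 7 of treatment. Allele, strain, sex and number of mice per library were not stated in the labels. The libraries are described as biological replicates, and with 2 in the KO group the p-values rest on few samples. Of 25910 gene names with a count in at least 1 of the 5 libraries, 18006 passed edgeR's filter on low counts and were tested.

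Aire is the transcription factor through which the thymus presents proteins of other tissues to developing T cells. Without it, T cells against self proteins escape deletion, and in mice they infiltrate the lacrimal glands and the ocular surface, among other tissues. The cornea is built of a stratified epithelium on a basement membrane, a collagen stroma made by keratocytes, and an inner endothelium that pumps fluid out of the stroma. Interferons induce antiviral and antigen-presentation genes in almost any cell type.

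Library totals were 25356754 and 68534734 counts in KO and 38331620 to 104518572 in WT. The corneal epithelial keratin Krt12 held more counts than any other gene in each of the 5 libraries. Aire itself could not check the labels: it had 4, 16 and 3 counts in WT and 0 and 3 in KO, too few for the filter. The first principal component of the tested genes (63.3% of the variance) separated KO from WT, and the second (21.8%) separated the KO libraries from each other. The chi-square per degree of freedom, which is 1 for sampling noise, was 19.8 to 26.7 between WT libraries and 135 between the KO libraries. Processed pseudogenes took 20.6 to 22.1% of the counts in WT and 17.6 and 19.0% in KO. The Y-linked genes Ddx3y, Eif2s3y, Kdm5d and Uty had 0 to 4 counts in every library, and Xist had at least 5031.

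In KO corneas 2062 genes were higher and 1619 lower than in WT, which is 11.5% and 8.99% of the genes tested. A gene list below whose shares are near these is no result about that list. A gene was called at an adjusted p under 0.05 in edgeR's quasi-likelihood test, adjusted by the Benjamini-Hochberg method. The median rise was 1.79-fold and the median fall 2.03-fold. At least a 4-fold difference was reached by 405 of the higher and 273 of the lower genes, and 16-fold by 75 and 53. The higher genes took 12.8% of the counts in WT and 21.8% in KO, and the lower genes 10.1% and 4.64%. For each called gene the KO libraries lay on 1 side of the WT libraries, but they differed from each other by over 2-fold in 238 of the higher and 125 of the lower genes. The number of calls rests on the libraries used. It was 901 higher and 695 lower without WT replicate 1, 699 and 606 without WT replicate 2, and 706 and 664 without WT replicate 3. A fit without KO replicate 1 or 2 keeps 1 KO library, so its error estimate comes from the WT libraries alone. Such a fit called more genes than the main fit, and a count of calls from it, here or below, is no measure of support. The number of calls was 178 and 130 when the PBS libraries entered the fit. In the PBS libraries processed pseudogenes took 0.289 to 0.361% of the counts, against 17.6 to 22.1% in the untreated ones. Mitochondrial genome counts were 183027 to 1405073 with PBS and 0 in each untreated library. A fit with the PBS libraries thus mixes libraries of unlike composition, and the part of this in its lower counts was not tested. With upper-quartile in place of TMM scaling, 1688 genes were higher and 2032 lower. The higher genes then made up 45.4% of the calls and not 56.0%.

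**Figure D1:**
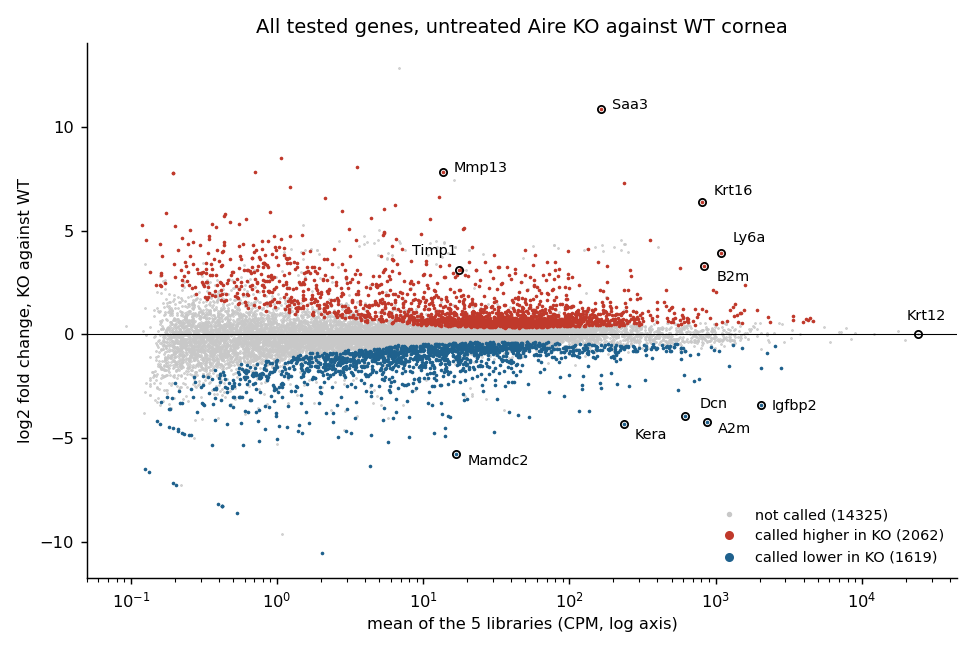
Log2 fold change of KO against WT for each of the 18006 tested genes, against the mean of the 5 libraries in CPM (counts scaled to library size) on a log axis; red genes were called higher and blue ones lower at an adjusted p under 0.05. The epithelial keratin Krt12 sits at the far right near a fold change of 0, and inflammatory genes such as Saa3 and Mmp13 lie at the top. The stromal genes Kera and Dcn and the protease inhibitor gene A2m lie at the bottom.

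Among called genes that averaged 10 CPM or more, the largest rises were in genes of inflammation and of the stressed epithelium. Below, levels are CPM, counts scaled to library size, in WT replicates 1, 2 and 3 and then in KO replicates 1 and 2, and log2 fold changes carry their standard error. Saa3, an acute-phase serum amyloid A protein made in inflamed tissue, measured 0.0757, 0.0869 and 0.563 CPM in WT against 611 and 208 in KO (log2 fold change 10.88 ± 1.01, adjusted p = 0.00456). Mmp13, a collagenase, rose from 0.0757, 0.203 and 0.108 CPM to 49.4 and 18.6 (log2 fold change 7.83 ± 0.59, adjusted p = 0.00152). Krt16, a keratin of wounded epithelium, rose from 19.3, 29.7 and 23.1 CPM to 3601 and 382 (log2 fold change 6.37 ± 1.07, adjusted p = 0.0217). The KO libraries lay far above the WT libraries for all 3, and KO replicate 1 was the higher, by 9.44-fold for Krt16, whose reads may be shared with Krt14 and Krt17. Nlrc5, the transactivator of MHC class I genes, stood at 0.909, 0.502 and 0.325 CPM in WT against 35.1 and 18.7 in KO (log2 fold change 5.57 ± 0.45, adjusted p = 0.00143). Dynap, a membrane protein, rose from 0.252, 0.270 and 0.455 CPM to 40.0 and 23.5 (log2 fold change 6.63 ± 0.34, adjusted p = 0.000259). The other 5 of the 10 were interferon-induced: Tgtp1 and Tgtp2, whose near-identical sequences share reads, Ifi27l2a, Slfn4 and Oas2. Their log2 fold changes were 4.10 (Oas2) to 5.11 (Tgtp1). Krt16 was not called without WT replicate 2 or 3, nor Ifi27l2a without WT replicate 2.

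The 10 largest falls included genes of the matrix, of the basement membrane and of the lens. Mamdc2, an extracellular matrix protein, measured 29.2, 28.9 and 25.3 CPM in WT against 0.153 and 0.711 in KO (log2 fold change -5.78 ± 0.43, adjusted p = 0.000957). Lect1, which encodes chondromodulin, an inhibitor of vessel growth, fell from 21.7, 25.8 and 21.9 CPM to 0.611 and 0.876 (log2 fold change -4.90 ± 0.21, adjusted p = 0.000133). Kera, the corneal proteoglycan keratocan, fell from 398, 345 and 402 CPM to 19.4 and 18.5 (log2 fold change -4.33 ± 0.16, adjusted p = 0.000117). The groups were far apart for all 3. A2m, a broad protease inhibitor, fell from 1367, 1407 and 1418 CPM to 84.2 and 63.7 (log2 fold change -4.24 ± 0.19, adjusted p = 0.000164). Slc14a1, a urea transporter, fell from 45.8, 52.1 and 49.8 CPM to 2.45 and 1.45 (log2 fold change -4.71 ± 0.24, adjusted p = 0.000217). Npnt, a matrix ligand of integrins, fell from 91.7, 73.3 and 87.3 CPM to 5.62 and 4.94 (log2 fold change -4.00 ± 0.16, adjusted p = 0.000117). Fgf10 is a growth factor that mesenchyme sends to epithelium. It fell from 27.2, 23.4 and 22.97 CPM to 1.53 and 1.55 (log2 fold change -3.99 ± 0.16, adjusted p = 0.000117). The basement membrane collagen chains Col4a3 and Col4a4 and the lens crystallin Cryge completed the 10. Cryge measured 31.4, 30.8 and 6.71 CPM in WT against 0.688 and 1.24 in KO, WT replicate 3 being far below the other WT libraries.

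**Figure D2:**
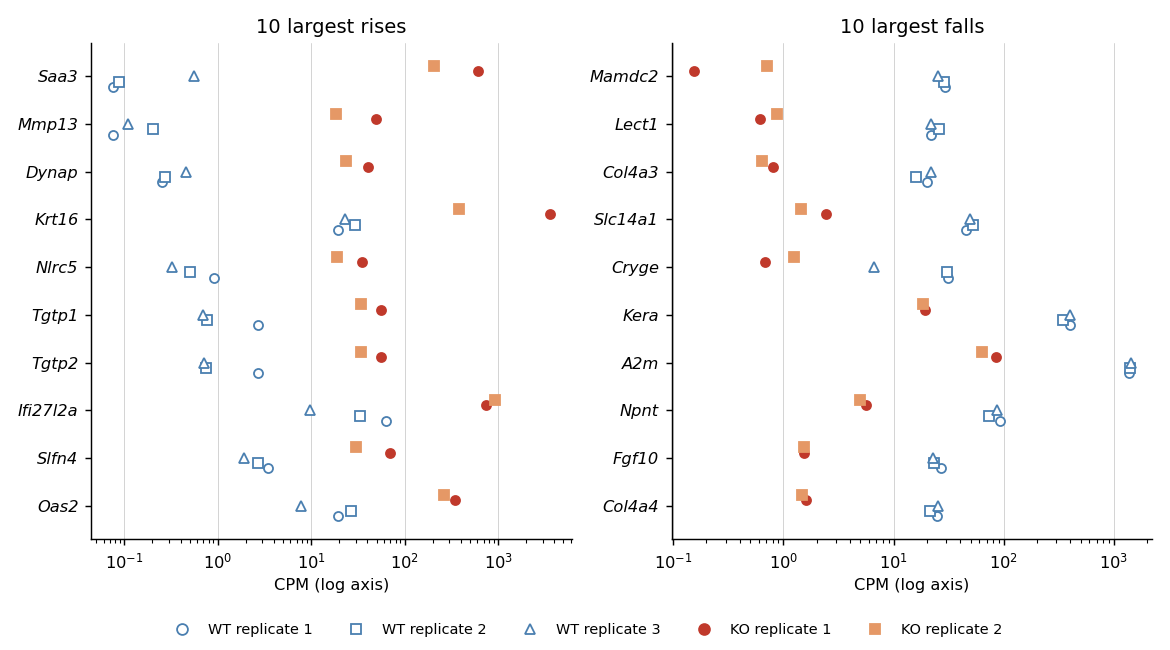
CPM in each library, on a log axis, for the 10 genes with the largest rise (left) and the 10 with the largest fall (right) among called genes averaging 10 CPM or more; open symbols are WT libraries and filled symbols KO libraries. The 20 genes were chosen to show no overlap between groups, as every called gene did. Of all tested genes 25.7% had both KO libraries above WT and 26.5% both below. The WT libraries spread widely for Ifi27l2a, and the KO libraries are far apart for Krt16.

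Ranked by the difference in level per kilobase of exon, the 10 genes that rose most were Krt6a, Krt6b, Krt14, Krt16, S100a11, Ly6a, B2m, Ifi27l2a, Ifitm1 and Pglyrp1. The 10 that fell most were Igfbp2, Apod, Cbr2, Col1a1, Eef1a1, Sparc, Angptl7, Mgarp, Serpinf1 and Mgp. Krt6a, Krt6b, S100a11, Pglyrp1, Cbr2, Eef1a1 and Mgarp were not called when any 1 WT library was left out. Krt16 was not called without WT replicate 2 or 3, Ifitm1 without WT replicate 1 or 3, and Ifi27l2a without WT replicate 2. None of these, nor Sparc, was called in a test against a fold of 1.5. The other genes of both rankings were called without each WT library in turn. Ly6a, a surface antigen induced by interferon, rose from 149, 179 and 159 CPM to 3503 and 1480.1 (log2 fold change 3.94 ± 0.36, adjusted p = 0.00158). Krt14, a basal keratin, rose from 482, 671 and 630.4 CPM to 4219 and 1912 (log2 fold change 2.37 ± 0.34, adjusted p = 0.00614). Both KO libraries were well above WT, and KO replicate 1 was the higher for both genes. Igfbp2, a binding protein of insulin-like growth factors, fell from 3286, 3131 and 3181 CPM to 285 and 322 (log2 fold change -3.40 ± 0.16, adjusted p = 0.000164). Angptl7, a secreted protein of keratocytes and the trabecular meshwork, fell from 747, 905 and 857 CPM to 84.8 and 181 (log2 fold change -2.65 ± 0.34, adjusted p = 0.00456).

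Genes induced by interferons rose almost as a block. All 38 listed genes of the type I interferon response were tested, and 36 rose and 0 fell (median log2 fold change 2.40, against -0.02 over all tested genes). Of 26 tested genes of the interferon gamma response 25 rose and 0 fell (median 2.97). The type I list summed to 1647, 1365 and 916 CPM in WT against 7152 and 6171 in KO. The interferon gamma list summed to 381, 360.3 and 336 CPM in WT against 1768 and 1164 in KO. Herc6, a ubiquitin-like ligase, rose from 5.00, 5.61 and 4.46 CPM to 38.3 and 29.6 (log2 fold change 2.75 ± 0.16, adjusted p = 0.000369). Parp12, an antiviral ADP-ribosyltransferase, rose from 53.6, 54.5 and 48.9 CPM to 157 and 135 (log2 fold change 1.48 ± 0.12, adjusted p = 0.000876). WT libraries were close together, and both KO libraries were well above them, in both genes. Dtx3l, a ubiquitin ligase, rose from 23.6, 22.9 and 23.3 CPM to 76.8 and 59.9, and Samd9l, a restriction factor of viruses, from 52.2, 51.6 and 48.6 CPM to 153 and 125. Irf7, which amplifies type I interferon, rose from 123, 110.4 and 65.3 CPM to 456 and 428 (log2 fold change 2.15 ± 0.26, adjusted p = 0.00364). Bst2 and Ifit2 were not called. Bst2 measured 69.3, 21.99 and 13.7 CPM in WT against 94.6 and 57.6 in KO (adjusted p = 0.383) and Ifit2 5.96, 3.56 and 3.44 CPM in WT against 5.92 and 3.83 in KO (adjusted p = 0.743).

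Among the interferon gamma genes were antimicrobial GTPases of the immunity-related and guanylate-binding families. Ifi47 rose from 22.97, 25.3 and 18.7 CPM to 159 and 120.0 (log2 fold change 2.64 ± 0.18, adjusted p = 0.000476). Gbp4 rose from 5.60, 5.90 and 4.16 CPM to 71.0 and 46.0 (log2 fold change 3.48 ± 0.23, adjusted p = 0.000571). Gbp8 rose from 1.34, 1.46 and 1.32 CPM to 18.8 and 10.3, and Igtp from 11.3, 9.25 and 7.23 CPM to 169.7 and 95.2. Each had both KO libraries several-fold above WT. The chemokines Cxcl9 and Cxcl10, which attract T cells through CXCR3, were almost silent in WT. Cxcl9 measured 0.126, 0.367 and 0.0650 CPM in WT against 15.8 and 5.64 in KO (log2 fold change 5.61 ± 0.71, adjusted p = 0.00571). Cxcl10 measured 0.0505, 0.174 and 0.0433 CPM in WT against 4.66 and 1.21 in KO (log2 fold change 4.77 ± 0.77, adjusted p = 0.00887). The count of called type I genes was 15 without KO replicate 1 and 17 without KO replicate 2, and that of interferon gamma genes 20 to 25 over the 5 fits without 1 library. With the PBS libraries in the fit, 10 type I and 4 interferon gamma genes were called.

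The interferons Ifnb1, Ifng, Ifnk, Ifne, Ifnl2 and Ifnl3 did not pass the filter on low counts. Of 6 receptor chains 4 rose, and the count was 1 without WT replicate 3. Ifngr2 rose from 40.5, 47.2 and 49.5 CPM to 88.1 and 84.7 (log2 fold change 0.92 ± 0.12, adjusted p = 0.00400). Ifngr1, Ifnlr1 and Il10rb had log2 fold changes of 1.33 ± 0.25, 0.80 ± 0.13 and 0.64 ± 0.11. The type I receptor chain Ifnar1 was not called (16.6, 17.4 and 17.5 CPM against 19.1 and 19.7; adjusted p = 0.277).

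The promoters of the induced genes are shown because many carry the element that interferon-regulated transcription factors bind. A core of this element, GAAANNGAA on either strand, was searched in RefSeq windows of 300 bases, from 250 before to 50 after each annotated start (build GRCm38.p6). It was present in 8.56% of the 32851 windows of the RefSeq table and in 7.35% of the windows of tested genes. Genes called higher held it in 10.7% of their windows, those that rose at least 4-fold in 24.6%, and genes called lower in 6.43%. Of the 36 called type I interferon genes 25 had a window, and 16 of their 27 windows (59.3%) held the core. It was in 13 of 19 windows (68.4%) of called interferon gamma genes, in 4 of 18 (22.2%) of called MHC class I genes and in 1 of 26 (3.85%) of the stromal genes called lower. The STAT element core TTCNNNGAA was in 42.1% of the windows of called interferon gamma genes against 6.88% for all tested genes. The kappaB element core GGGNNTTCC was in 33.3% of those of called MHC class I genes against 7.02%. These shares describe letters in short windows and say nothing of binding in these corneas.

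The 3 promoters printed belong to the called genes of the type I interferon and MHC class I lists with the largest rise among those whose window held the core, which is in capitals (TTC to TTC where it lies on the minus strand). All are read 5′ to 3′ on the plus strand, at chr19:34640639-34640938 for Ifit1, chr19:34583279-34583578 for Ifit3 and chr2:122147437-122147736 for B2m.
Ifit1: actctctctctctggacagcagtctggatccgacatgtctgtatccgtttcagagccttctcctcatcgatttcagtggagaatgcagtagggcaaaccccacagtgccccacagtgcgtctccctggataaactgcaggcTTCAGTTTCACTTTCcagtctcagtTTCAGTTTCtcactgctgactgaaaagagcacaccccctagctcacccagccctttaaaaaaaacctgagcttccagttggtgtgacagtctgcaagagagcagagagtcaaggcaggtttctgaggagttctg
Ifit3: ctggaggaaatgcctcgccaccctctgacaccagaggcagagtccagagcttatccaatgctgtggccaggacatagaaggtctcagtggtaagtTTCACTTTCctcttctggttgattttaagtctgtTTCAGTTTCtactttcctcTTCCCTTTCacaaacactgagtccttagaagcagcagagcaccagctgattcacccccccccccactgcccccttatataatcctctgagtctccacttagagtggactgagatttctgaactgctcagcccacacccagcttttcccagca
B2m: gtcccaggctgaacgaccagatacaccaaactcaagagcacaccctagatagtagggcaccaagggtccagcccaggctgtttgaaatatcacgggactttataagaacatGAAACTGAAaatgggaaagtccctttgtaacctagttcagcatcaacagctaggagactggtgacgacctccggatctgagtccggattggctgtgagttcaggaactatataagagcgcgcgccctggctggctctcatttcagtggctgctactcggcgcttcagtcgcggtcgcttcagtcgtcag

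Ifit1 held 3 cores, beginning at bases -109, -103 and -84 from the annotated start, of which the first pair overlap. Ifit3 held 3, at -155, -121 and -102, and B2m held 1, at -139. The exact STAT and kappaB letters searched, TTCNNNGAA and GGGNNTTCC, had 0 matches in these windows. Forms with another spacing were not searched, so the 0 does not show that a window lacks such an element. Ifit1, which binds viral RNA, rose from 19.4, 14.6 and 6.76 CPM to 168 and 141 (log2 fold change 3.51 ± 0.43, adjusted p = 0.00598). Its neighbour Ifit3 rose from 27.2, 11.1 and 8.34 CPM to 211 and 139 (log2 fold change 3.50 ± 0.56, adjusted p = 0.0152).

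Antigen presentation rose with the interferon genes. Of 21 genes of the MHC class I pathway, all tested, 19 rose and 0 fell (median log2 fold change 2.12). B2m, the light chain of class I molecules, rose from 231, 177 and 146 CPM to 2066 and 1550.0 (log2 fold change 3.29 ± 0.24, adjusted p = 0.000586). The heavy chain H2-K1 rose from 161, 131 and 107 CPM to 1415 and 1038 (log2 fold change 3.21 ± 0.22, adjusted p = 0.000527). Both KO libraries lay several-fold above all WT libraries for each. The peptide transporter subunit Tap2 rose from 50.3, 51.2 and 47.6 CPM to 168 and 154 (log2 fold change 1.69 ± 0.11, adjusted p = 0.000421). The immunoproteasome subunit Psmb8 rose from 109, 117 and 95.2 CPM to 465 and 464 (log2 fold change 2.12 ± 0.13, adjusted p = 0.000421). Of 24 subunits of the constitutive proteasome 3 rose and 0 fell, a share near that of all tested genes, with a median log2 fold change of 0.14. The 3 were Psmd4 (0.47 ± 0.12), Psma7 (0.43 ± 0.12) and Psmc4 (0.40 ± 0.11, log2 fold changes). That count was 0 without any 1 WT library. The class I count was 18 to 20 in the fits without 1 library, and 9 with the PBS libraries in the fit.

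MHC class II genes, which present extracellular antigen to CD4 T cells, rose in 7 of 8 tested members and fell in 0. H2-Eb1 rose from 33.1, 32.7 and 28.9 CPM to 146 and 109.5 (log2 fold change 2.02 ± 0.15, adjusted p = 0.000617). H2-Ab1 rose from 37.2, 32.4 and 29.9 CPM to 155 and 104, and H2-Aa from 44.3, 43.1 and 38.5 CPM to 163 and 106. The invariant chain Cd74 rose from 97.8, 95.5 and 82.2 CPM to 360.0 and 271 (log2 fold change 1.78 ± 0.16, adjusted p = 0.00130). None of the 4 overlapped between groups, and KO replicate 1 was the higher KO library in each.

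Inflammatory mediators changed in part. Of 24 chemokines 8 rose and 1 fell. Ccl5, which attracts T cells, rose from 0.151, 0.492 and 0.303 CPM to 11.04 and 5.24 (log2 fold change 4.57 ± 0.50, adjusted p = 0.00269). Ccl4 and Ccl3 had log2 fold changes of 3.83 ± 0.45 and 3.32 ± 0.40, and Cxcl16 rose from 16.4, 17.2 and 15.6 CPM to 44.2 and 31.8. Ccl6 fell from 8.36, 8.89 and 8.81 CPM to 3.90 and 2.79 (log2 fold change -1.39 ± 0.19, adjusted p = 0.00533). Of 16 tested genes of the interleukin-1 family 8 rose and 1 fell. Il1a rose from 8.81, 8.26 and 9.83 CPM to 36.4 and 27.4 (log2 fold change 1.83 ± 0.16, adjusted p = 0.00104), and Il1b from 0.883, 0.686 and 0.953 CPM to 17.96 and 5.06 (log2 fold change 3.78 ± 0.54, adjusted p = 0.00743). Il18bp, which captures interleukin-18, rose from 2.07, 1.77 and 1.78 CPM to 18.7 and 5.40, unevenly between the KO libraries. The interleukin-36 gene Il1f8 rose from 3.71, 4.24 and 5.28 CPM to 23.8 and 13.3. Il1f5, the antagonist of its receptor, fell from 10.2, 12.7 and 12.99 CPM to 4.59 and 6.88 (log2 fold change -1.05 ± 0.21, adjusted p = 0.0169). The interleukin-1 count was 3 without any 1 WT library.

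Of 16 tested antimicrobial and acute-phase genes 7 rose and 1 fell. The rises included Saa1, Saa2, Saa3 and Hp, which are acute-phase proteins. Saa1 measured 0.808, 0.521 and 0.585 CPM in WT against 23.2 and 7.36 in KO (log2 fold change 4.60 ± 0.53, adjusted p = 0.00400). Pglyrp1, a peptidoglycan-binding protein, rose from 1036, 1372 and 1471 CPM to 3462 and 2306 (log2 fold change 1.16 ± 0.23, adjusted p = 0.0153). The count was 4 without WT replicate 2 or 3. In the complement list 2 of 14 tested genes rose and 3 fell (14.3% and 21.4%, against 11.5% and 8.99% of all tested genes). The central component C3 rose from 12.6, 10.5 and 10.1 CPM to 107 and 52.3 (log2 fold change 2.85 ± 0.30, adjusted p = 0.00308). The falls included the proteases C1s1 (-0.97 ± 0.13) and C1ra (-0.80 ± 0.17, log2 fold changes). The complement count of rises was 1 without WT replicate 2 or 3, and that of falls 2 without any 1 WT library.

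Genes of pyroptosis and necroptosis, the lytic forms of cell death, rose in 11 of 14 tested members and fell in 0 (median log2 fold change 1.85). The pore-forming Gsdmd rose from 12.8, 11.9 and 11.6 CPM to 32.3 and 26.3 (log2 fold change 1.27 ± 0.13, adjusted p = 0.00181). Its activating protease Casp1 rose from 1.99, 1.95 and 1.67 CPM to 15.8 and 6.91 (log2 fold change 2.59 ± 0.34, adjusted p = 0.00491). The nucleic acid sensor Zbp1 rose from 15.95, 17.7 and 7.34 CPM to 290.1 and 155 (log2 fold change 4.02 ± 0.46, adjusted p = 0.00526). No group of libraries overlapped for these 3 genes. Of 13 tested NF-kappaB feedback genes 7 rose and 1 fell. Bcl3 rose from 21.2, 22.97 and 21.6 CPM to 79.7 and 76.0 (log2 fold change 1.83 ± 0.10, adjusted p = 0.000225). Cd40, a receptor of antigen-presenting cells, fell from 9.62, 10.2 and 10.3 CPM to 2.45 and 1.06 (log2 fold change -2.58 ± 0.35, adjusted p = 0.00517). The pyroptosis count was 6 without any 1 WT library. The NF-kappaB count was 4 without WT replicate 1 or 2 and 2 without WT replicate 3.

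Transcripts of T cells were near absent in WT and low in KO. The 24 listed T cell genes summed to 4.37, 6.33 and 5.67 CPM in WT against 58.4 and 32.9 in KO. Of these 21 passed the filter and 21 rose. A gene that passed through the KO libraries alone had to differ, so that count is a description and no support. Cd3g, a chain of the T cell receptor complex, measured 0.101, 0.309 and 0.260 CPM in WT against 4.74 and 3.02 in KO (log2 fold change 4.02 ± 0.44, adjusted p = 0.00239). Cd4 measured 0.328, 0.879 and 0.779 CPM in WT against 4.05 and 4.31 in KO (log2 fold change 2.62 ± 0.39, adjusted p = 0.00625), and Cd8a 0, 0.0772 and 0.0433 CPM in WT against 1.22 and 0.810 in KO (log2 fold change 4.31 ± 0.72, adjusted p = 0.00865). Foxp3, the factor of regulatory T cells, measured 0, 0.0386 and 0.0433 CPM in WT against 1.95 and 0.727 in KO (log2 fold change 5.31 ± 0.77, adjusted p = 0.00594). KO libraries exceeded WT libraries for each. Ptprc, the CD45 antigen of all leukocytes, was not called (0.555, 0.415 and 0.671 CPM against 0.994 and 0.810; adjusted p = 0.223). Of 11 cytotoxic genes 5 passed the filter and 4 rose. Among them were Nkg7 (0.0757, 0.203 and 0.0650 CPM against 2.90 and 1.93) and granzyme B, Gzmb (0, 0.00966 and 0 CPM against 0.535 and 0.331). The T cell count was 11 without WT replicate 2 and 10 without WT replicate 3, and 0 with the PBS libraries in the fit.

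Transcripts of the neutrophil list were higher in KO, and more so in KO replicate 1. Their sum over 20 genes was 18.9, 10.6 and 12.9 CPM in WT against 208 and 66.1 in KO. The list includes the interferon-induced Slfn4 (69.9 and 30.3 CPM in KO) and the interleukin-1 gene Il1b (17.96 and 5.06). The sum is therefore not specific to neutrophils. Elane, Mpo and Ngp did not pass the filter. Of 17 tested members 13 rose and 0 fell, again with members that passed the filter through KO alone. The receptor Csf3r measured 1.44, 0.502 and 0.823 CPM in WT against 7.76 and 4.30 in KO (log2 fold change 2.74 ± 0.47, adjusted p = 0.0103). Fpr2, a receptor of bacterial peptides, measured 0.227, 0.0676 and 0.152 CPM in WT against 3.10 and 1.07 in KO (log2 fold change 3.89 ± 0.66, adjusted p = 0.00944). The alarmin S100a8 measured 1.97, 0.772 and 1.32 CPM in WT against 13.9 and 4.81 in KO (log2 fold change 2.81 ± 0.56, adjusted p = 0.0193). Its partner S100a9 was not called (6.54, 3.23 and 4.96 CPM against 72.7 and 11.1; adjusted p = 0.0809). B cell genes summed to 8.83, 11.3 and 6.95 CPM in WT against 28.8 and 70.3 in KO, KO replicate 2 being the higher. Of 7 tested 4 rose, such as Ighm, the heavy chain of IgM (5.28, 4.12 and 4.42 CPM against 7.64 and 9.24). The neutrophil count was 4 without WT replicate 2 and 3 without WT replicate 3. The B cell count was 2, 0 and 1 without WT replicates 1, 2 and 3.

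Of 19 tested macrophage genes 4 rose and 4 fell, with a summed level of 1053, 1009 and 940.1 CPM in WT against 757 and 654 in KO. Apoe alone held 780, 765 and 695 CPM of that sum in WT and 317 and 331 in KO. The other genes of the list were together higher in KO. Cd163, a scavenger receptor of resident macrophages, fell from 2.35, 3.21 and 2.38 CPM to 0.497 and 0.711 (log2 fold change -2.10 ± 0.32, adjusted p = 0.00676). Mrc1, the mannose receptor, fell from 4.44, 4.03 and 4.92 CPM to 1.95 and 1.22 (log2 fold change -1.52 ± 0.27, adjusted p = 0.0108). Lyve1 (-2.50 ± 0.64) and Apoe (-1.20 ± 0.13, log2 fold changes) also fell, and other cells make both. The rises were in Cd68 (0.62 ± 0.12), Itgam (1.68 ± 0.31), Msr1 (1.43 ± 0.40) and Aif1 (1.28 ± 0.36, log2 fold changes). The macrophage count of rises was 0 without any 1 WT library, and that of falls 2 without WT replicate 3. Csf1r, which all macrophages carry, was not called (27.1, 24.8 and 25.2 CPM against 24.8 and 27.2; adjusted p = 0.928). Of 13 tested dendritic and Langerhans cell genes 4 rose and 2 fell. Ccr7, the receptor of migration to lymph nodes, rose from 0.0505, 0.00966 and 0.0217 CPM to 1.26 and 0.562, and Fscn1 from 22.3, 27.4 and 26.8 CPM to 77.5 and 65.8. Clec10a (-1.33 ± 0.30) and Mgl2 (-1.51 ± 0.36, log2 fold changes) fell. The count of rises was 2 without WT replicate 2 or 3, and that of falls 0 without any 1 WT library. Of 8 tested mast cell genes 2 fell and 0 rose. The carboxypeptidase Cpa3 fell from 4.77, 3.79 and 3.96 CPM to 0.726 and 0.364 (log2 fold change -3.01 ± 0.36, adjusted p = 0.00302). The tryptase Tpsb2 fell from 10.1, 10.004 and 7.77 CPM to 0.688 and 0 (log2 fold change -5.19 ± 1.15, adjusted p = 0.0355). The mast cell count of falls was 1 without any 1 WT library.

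The defining keratins and eye field factor of the epithelium were not called. Krt12 measured 22123, 26153 and 24024 CPM in WT against 17876 and 30732 in KO (log2 fold change 0.01 ± 0.25, adjusted p = 0.978). Krt5, its basal partner keratin, measured 16041, 18973 and 16078 CPM in WT against 15110.1 and 22576 in KO (adjusted p = 0.669). WT and KO libraries overlapped for both, with KO replicate 2 the highest. Pax6, the eye field factor, measured 129, 113 and 139 CPM in WT against 106 and 91.6 in KO (adjusted p = 0.107). Of 20 tested corneal epithelial genes 6 rose and 0 fell. The epithelial factor Elf3 rose from 487, 558 and 535 CPM to 1124 and 1302 (log2 fold change 1.20 ± 0.14, adjusted p = 0.00286), and Klf5 from 78.1, 74.3 and 76.1 CPM to 141 and 207. Clu, a secreted chaperone, rose from 442, 369.8 and 362 CPM to 937 and 867, and Cldn4, a tight-junction protein, from 197, 205 and 196 CPM to 381 and 458. Ehf and Krt14 were the others. Of 14 tested limbal and progenitor genes 3 rose and 0 fell, namely Socs3, the metallothionein Mt2 and Ifitm3, which are known to respond to cytokines or stress. Socs3, a feedback inhibitor of cytokine signals, rose from 2.20, 1.97 and 1.69 CPM to 35.0 and 11.4 (log2 fold change 3.56 ± 0.48, adjusted p = 0.00710). The progenitor genes Trp63 (adjusted p = 0.137) and Gpha2 (adjusted p = 0.135) were not called.

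Genes of cornification, the programme of skin-like barrier formation, rose in 11 of 24 tested members and fell in 0 (median log2 fold change 0.81). Sprr1a, a cornified envelope precursor, rose from 6.84, 8.04 and 5.04 CPM to 173 and 55.5 (log2 fold change 4.09 ± 0.53, adjusted p = 0.00864). Its relative Sprr2g rose from 0.227, 0.232 and 0.260 CPM to 4.20 and 1.22 (log2 fold change 3.47 ± 0.56, adjusted p = 0.00775). KO replicate 1 was above KO replicate 2 for both. The crosslinking enzyme Tgm1 rose from 24.5, 26.1 and 23.8 CPM to 48.1 and 35.0 (log2 fold change 0.74 ± 0.15, adjusted p = 0.0159). Sprr1b had 0 counts in all 3 WT libraries and 798 and 205 in KO. It was at least 288-fold higher against a floor of 3 counts per WT library, and was not called (adjusted p = 0.129). The skin keratins Krt1 (4.11, 4.34 and 4.44 CPM against 2.10 and 3.09; adjusted p = 0.0700) and Krt10 (7.42, 7.12 and 8.55 CPM against 5.73 and 6.43; adjusted p = 0.186) were not called. Skin and hair follicle genes summed to 3.69, 3.76 and 3.94 CPM in WT against 28.4 and 3.64 in KO, high in KO replicate 1 alone, and their part in these rises was not tested. The count of rises was 4 without WT replicate 1 or 2 and 2 without WT replicate 3.

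Of 22 desmosome and junction genes 10 rose and 1 fell. The tight-junction gene Cldn23 rose from 50.1, 45.5 and 48.6 CPM to 103 and 114 (log2 fold change 1.18 ± 0.11, adjusted p = 0.00136). The desmosomal plaque protein Pkp3 rose from 352, 406 and 352 CPM to 693 and 800.0 (log2 fold change 1.01 ± 0.14, adjusted p = 0.00517). Its relative Pkp2 fell from 3.43, 2.85 and 2.86 CPM to 0.955 and 1.60 (log2 fold change -1.22 ± 0.30, adjusted p = 0.0305). Of 8 tested mucin and glycan genes of the ocular surface 5 rose and 0 fell. The membrane mucin Muc1 rose from 87.2, 89.6 and 88.2 CPM to 236 and 174 (log2 fold change 1.21 ± 0.15, adjusted p = 0.00343), and Muc4 from 1028, 1049 and 1070.4 CPM to 2250.2 and 2050.3 (log2 fold change 1.04 ± 0.13, adjusted p = 0.00374). Muc20, the galectin Lgals3 and Cd24a were the others, with log2 fold changes of 0.95 ± 0.14, 0.95 ± 0.16 and 0.81 ± 0.14. Among 12 EGF receptor ligands and receptors 5 rose and 1 fell. Tgfa rose from 7.32, 8.50 and 8.96 CPM to 22.9 and 13.4 (log2 fold change 1.13 ± 0.23, adjusted p = 0.0176), and Hbegf from 74.2, 62.2 and 62.5 CPM to 98.0 and 104.6. Egf fell from 1.74, 1.78 and 1.75 CPM to 0.764 and 0.926 (log2 fold change -1.04 ± 0.28, adjusted p = 0.0401). The junction count was 4 without WT replicate 1, 3 without WT replicate 2 and 6 without WT replicate 3. The mucin count was 3 without WT replicate 1 or 2, and the count of EGF genes 2 without WT replicate 1 and 0 without WT replicate 2 or 3.

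**Figure D3:**
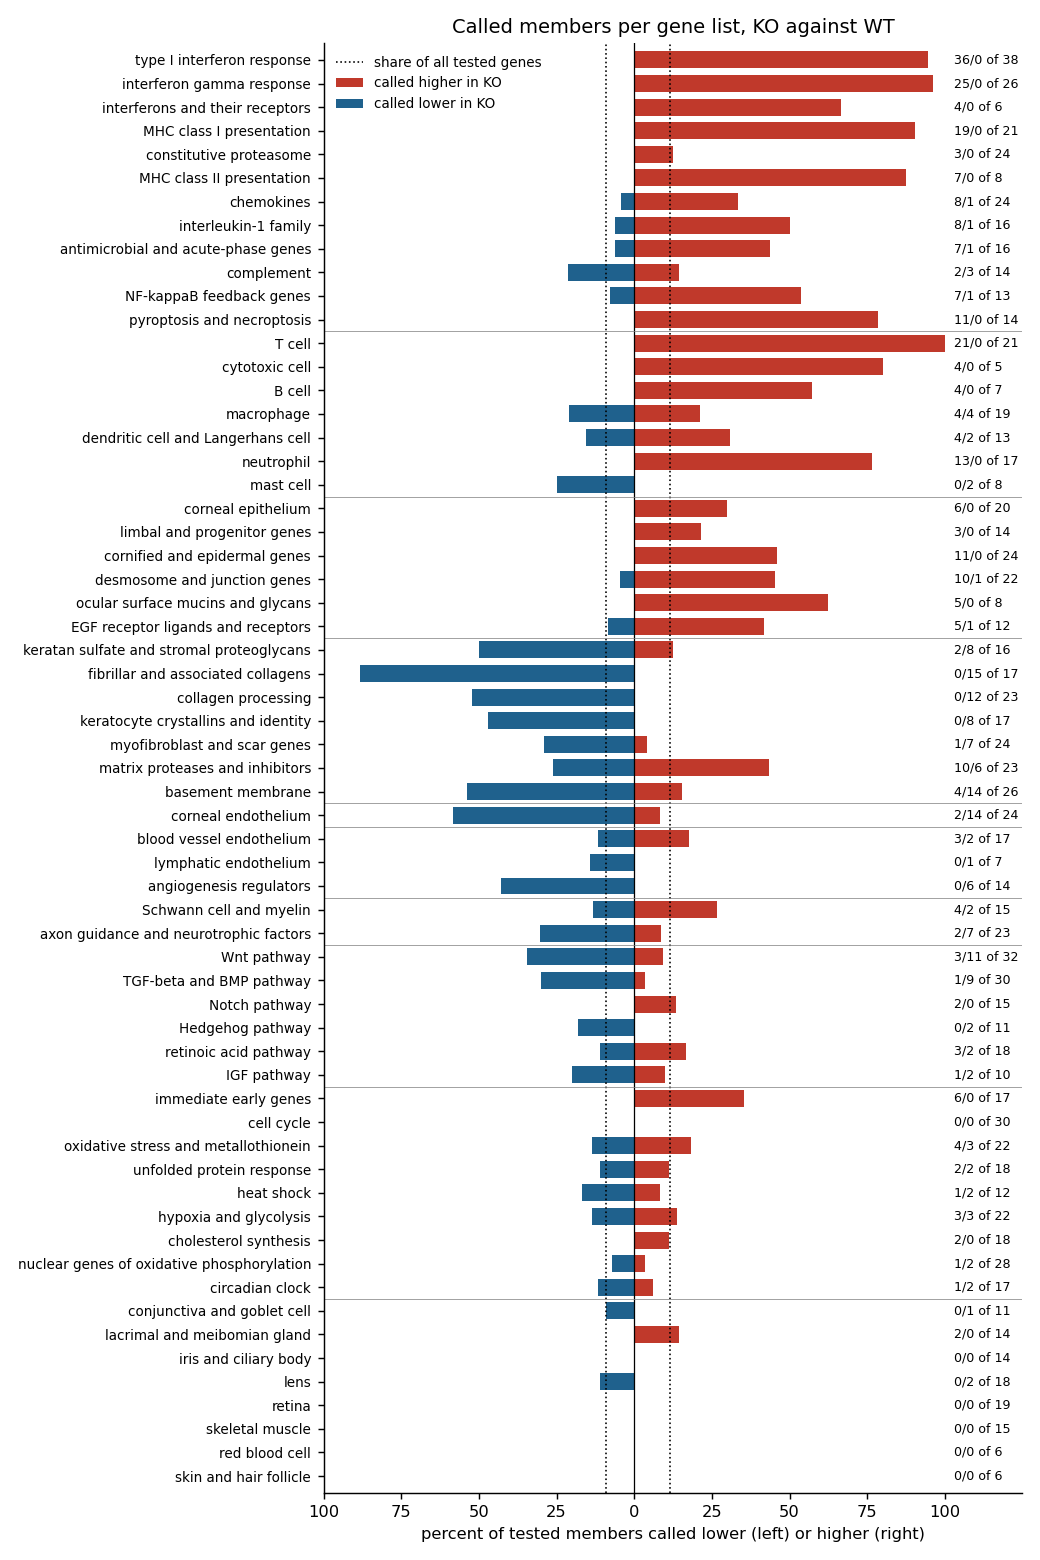
Percent of the tested members of each of the 61 gene lists that were called higher (red, right) or lower (blue, left) in KO, with the counts of higher and lower members of those tested at the right edge and dotted lines at the shares of all tested genes, 11.5% higher and 8.99% lower. Interferon, MHC and T cell lists reach far to the right, the stroma and corneal endothelium lists far to the left, and the cell cycle list shows no bar.

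The stroma showed a fall across its main gene groups. Of 17 fibrillar and associated collagens 15 fell and 0 rose (median log2 fold change -1.64). Their sum was 10533, 10203 and 11317 CPM in WT against 2812 and 3496 in KO. Col1a1, the main collagen chain of the stroma, fell from 3655, 3725 and 4058 CPM to 1063 and 1447 (log2 fold change -1.60 ± 0.19, adjusted p = 0.00283). Col5a1, which limits fibril width, fell from 299, 291 and 344 CPM to 59.1 and 58.6 (log2 fold change -2.40 ± 0.14, adjusted p = 0.000369). Col6a3, of the microfibrils, fell from 373, 338 and 431 CPM to 70.2 and 67.0 (log2 fold change -2.47 ± 0.16, adjusted p = 0.000424). WT and KO libraries did not overlap in any of the 3. In bulk RNA, fewer keratocytes and less RNA per keratocyte cannot be told apart, and this holds for each cell type named. The collagen count was 11 to 14 in the fits without 1 library and 0 with the PBS libraries in the fit.

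The small proteoglycans that space the collagen fibrils fell as well. Of 16 tested genes for keratan sulfate and stromal proteoglycans 8 fell and 2 rose. Dcn, decorin, fell from 992, 901 and 1071 CPM to 72.3 and 59.7 (log2 fold change -3.90 ± 0.18, adjusted p = 0.000164). Lum, lumican, fell from 182, 158 and 209 CPM to 17.2 and 11.6 (log2 fold change -3.68 ± 0.24, adjusted p = 0.000433). Chst5, which sulfates corneal keratan sulfate in mice, fell from 57.1, 61.8 and 65.1 CPM to 5.04 and 4.10 (log2 fold change -3.76 ± 0.15, adjusted p = 0.000117). Both KO libraries lay far below WT for these 3. Ogn, Omd, Prelp and Bgn had log2 fold changes of -2.44 ± 0.17, -1.67 ± 0.18, -1.12 ± 0.25 and -0.62 ± 0.14. The 2 that rose, B4galt1 (0.59 ± 0.10) and St3gal1 (0.67 ± 0.15), encode glycosyltransferases that act on many glycoproteins, and were not called when any 1 WT library was left out. Of 23 tested collagen processing genes 12 fell and 0 rose. The lysyl hydroxylase Plod1 fell from 187, 167 and 186 CPM to 31.3 and 35.3 (log2 fold change -2.44 ± 0.14, adjusted p = 0.000276). The collagen chaperone Serpinh1 fell from 193, 193 and 184 CPM to 82.5 and 92.6 (log2 fold change -1.12 ± 0.12, adjusted p = 0.00234). Over these 3 stromal lists 35 of 56 tested genes fell and 2 rose. The falls were 1.32-fold to 20.2-fold, with a median of 3.04-fold.

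Of 17 tested genes of keratocyte identity and corneal crystallins 8 fell and 0 rose. Aldh1a1, a stromal crystallin and retinal dehydrogenase, fell from 187, 203 and 162 CPM to 19.8 and 38.8 (log2 fold change -2.65 ± 0.30, adjusted p = 0.00326). The water channel Aqp1, shared with the endothelium, fell from 498, 442 and 492 CPM to 119.5 and 89.0 (log2 fold change -2.20 ± 0.18, adjusted p = 0.000876). Pdgfrb, a mesenchymal growth factor receptor, fell from 40.6, 43.5 and 41.7 CPM to 27.4 and 28.4 (log2 fold change -0.59 ± 0.10, adjusted p = 0.00865). Of 24 tested myofibroblast and scar genes 7 fell and 1 rose. Periostin, Postn, fell from 57.3, 54.6 and 60.9 CPM to 15.7 and 17.4 (log2 fold change -1.80 ± 0.11, adjusted p = 0.000421). Fibronectin, Fn1, fell from 187, 176 and 189.6 CPM to 87.6 and 84.9 (log2 fold change -1.09 ± 0.12, adjusted p = 0.00220). The proteoglycan Vcan rose from 1.11, 0.715 and 0.931 CPM to 2.45 and 2.28 (log2 fold change 1.37 ± 0.29, adjusted p = 0.0199). The contractile genes that define the myofibroblast were not called. Acta2 measured 48.3, 38.0 and 39.5 CPM in WT against 49.2 and 62.9 in KO (adjusted p = 0.0987), and Tagln 12.2, 7.61 and 8.21 CPM in WT against 9.25 and 15.4 in KO (adjusted p = 0.351). The keratocyte count was 5 without WT replicate 2, and the scar gene count of falls 6 without any 1 WT library.

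Proteases and their inhibitors split: of 23 tested genes 10 rose and 6 fell. Timp1, the inducible metalloprotease inhibitor, rose from 4.75, 4.26 and 3.90 CPM to 39.2 and 35.2 (log2 fold change 3.11 ± 0.13, adjusted p = 0.000133). Its relative Timp2 fell from 208, 206 and 206 CPM to 134 and 164 (log2 fold change -0.48 ± 0.13, adjusted p = 0.0475). Timp3 fell from 10.6, 9.45 and 14.7 CPM to 4.78 and 5.42 (log2 fold change -1.17 ± 0.22, adjusted p = 0.0132). The rising proteases included Mmp13, the stromelysin Mmp3 (105.3, 101.2 and 108 CPM against 457 and 169) and the gelatinase Mmp9 (0.379, 0.377 and 0.476 CPM against 5.62 and 1.34). The macrophage elastase Mmp12 rose from 0.227, 0.328 and 0.390 CPM to 9.09 and 2.13, and Adam8 from 1.57, 1.58 and 1.88 CPM to 16.1 and 7.9998. KO replicate 1 was above KO replicate 2 for all 5 proteases. Adamts1, which cleaves versican, fell from 13.1, 13.6 and 17.1 CPM to 3.32 and 3.42 (log2 fold change -2.11 ± 0.18, adjusted p = 0.000957). The count of rises was 6 without WT replicate 2 or 3. That of falls was 3 without WT replicate 1 or 3 and 2 without WT replicate 2.

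Basement membrane genes fell in 14 of 26 tested members and rose in 4. Their summed level was still higher in KO, at 2218, 2360 and 2298 CPM in WT against 2886 and 2874 in KO. The collagen chain Col4a3 fell from 20.1, 16.02 and 22.04 CPM to 0.802 and 0.645 (log2 fold change -4.77 ± 0.23, adjusted p = 0.000181). Col4a4 fell from 24.6, 21.5 and 25.3 CPM to 1.60 and 1.49 (log2 fold change -3.95 ± 0.16, adjusted p = 0.000117). The laminin chain Lama2 fell from 15.2, 15.4 and 16.4 CPM to 3.25 and 3.98, and Frem3 from 4.97, 4.61 and 4.76 CPM to 0.306 and 0.116. The rises included the epithelial laminin chains Lama3 and Lamb3 and the hemidesmosomal collagen Col17a1. Lamb3 rose from 47.0, 48.9 and 43.2 CPM to 149 and 97.3 (log2 fold change 1.41 ± 0.18, adjusted p = 0.00429), and Col17a1 from 1195, 1363 and 1270.3 CPM to 1834 and 1964 (log2 fold change 0.57 ± 0.14, adjusted p = 0.0284). The count of rises was 2 without WT replicate 1 or 2 and 1 without WT replicate 3.

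Of 24 tested corneal endothelial genes 14 fell and 2 rose (median log2 fold change -1.48). Slc4a11, the transporter mutated in a hereditary endothelial dystrophy, fell from 111, 107 and 112 CPM to 15.5 and 16.3 (log2 fold change -2.79 ± 0.11, adjusted p = 0.000117). The bicarbonate cotransporter Slc4a4 fell from 20.1, 19.5 and 18.6 CPM to 3.10 and 3.97 (log2 fold change -2.44 ± 0.16, adjusted p = 0.000421). Col8a2, a collagen of Descemet's membrane, fell from 247, 213 and 242 CPM to 64.7 and 54.3 (log2 fold change -1.98 ± 0.15, adjusted p = 0.000663). The groups did not overlap, and the KO libraries were close to each other. Of the 2 rises, the ion transporter Slc12a2 had a log2 fold change of 0.47 ± 0.13, and epithelia make it too. The count of rises was 0 without any 1 WT library. Col4a3, Col4a4, Col8a1, Col8a2 and Aqp1 stand in another list too, so the lists are not independent. The count of falls was 13 to 16 in the fits without 1 library and 3 with the PBS libraries in the fit.

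Of 17 genes of blood vessel endothelium 3 rose and 2 fell (17.6% and 11.8%, against 11.5% and 8.99% of all tested genes). Of 7 lymphatic genes 0 rose and 1 (Lyve1) fell. The vessel count of rises was 0 without any 1 WT library, and so was the lymphatic count of falls. Kdr, the main receptor of VEGF, fell from 13.4, 9.71 and 10.8 CPM to 3.86 and 2.86 (log2 fold change -1.76 ± 0.22, adjusted p = 0.00352). Pecam1, which all endothelial cells carry, rose from 7.30, 6.63 and 7.86 CPM to 10.8 and 9.85 (log2 fold change 0.51 ± 0.14, adjusted p = 0.0494). Of 14 tested regulators of angiogenesis 6 fell and 0 rose, on both sides of the process. The inhibitor Serpinf1 fell from 878, 853 and 855 CPM to 177 and 271 (log2 fold change -1.94 ± 0.21, adjusted p = 0.00223), and Lect1 and Thbs1 are inhibitors too. The ligand Angpt2 fell from 9.34, 9.27 and 9.07 CPM to 2.33 and 1.57 (log2 fold change -2.27 ± 0.22, adjusted p = 0.00150). Vegfc and Fgf2 had log2 fold changes of -1.49 ± 0.27 and -1.29 ± 0.31.

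Of 15 tested genes of Schwann cells and myelin 4 rose and 2 fell. The myelin gene Mbp rose from 98.5, 90.5 and 91.8 CPM to 149.8 and 163 (log2 fold change 0.74 ± 0.11, adjusted p = 0.00657), and Cnp from 9.24, 9.61 and 9.25 CPM to 19.8 and 16.4. Ngfr and Erbb3 were the others, and epithelia also express Erbb3. The myelin count of rises was 1 without WT replicate 2, and that of falls 1 without WT replicate 2 or 3. The growth-associated Gap43 fell from 2.90, 2.83 and 3.03 CPM to 0.994 and 0.545 (log2 fold change -1.97 ± 0.33, adjusted p = 0.00865). Of 23 tested genes for axon guidance and neurotrophic factors 7 fell and 2 rose, the rises being 0 without any 1 WT library. The repellent Slit3 fell from 28.9, 33.5 and 30.6 CPM to 6.80 and 7.83 (log2 fold change -2.08 ± 0.13, adjusted p = 0.000421), and Slit2 from 12.3, 11.3 and 11.5 CPM to 2.94 and 1.60 (log2 fold change -2.40 ± 0.27, adjusted p = 0.00256). Ntn1 and Sema3c had log2 fold changes of -0.95 ± 0.11 and -1.69 ± 0.26.

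Of 32 tested Wnt pathway genes 11 fell and 3 rose. The antagonist Dkk2 fell from 34.6, 38.5 and 42.8 CPM to 6.08 and 5.67 (log2 fold change -2.72 ± 0.14, adjusted p = 0.000217), and Dkk1 from 4.82, 4.18 and 3.83 CPM to 0.115 and 0.149 (log2 fold change -4.95 ± 0.32, adjusted p = 0.000421). The ligand Wnt11 fell from 33.6, 31.7 and 33.4 CPM to 12.1 and 11.3, and Wnt5a from 34.2, 37.0 and 44.4 CPM to 11.5 and 6.31. Wnt9a, also a ligand, rose from 37.0, 29.5 and 33.3 CPM to 62.6 and 77.5 (log2 fold change 1.08 ± 0.14, adjusted p = 0.00415). Ligands thus moved in both directions, while these antagonists fell. Of 30 tested TGF-beta and BMP genes 9 fell and 1 rose. The ligand Bmp3 fell from 28.0, 26.6 and 30.1 CPM to 7.87 and 4.68 (log2 fold change -2.19 ± 0.23, adjusted p = 0.00231), and the activin antagonist Fst from 8.10, 10.1 and 9.07 CPM to 3.36 and 2.02 (log2 fold change -1.78 ± 0.26, adjusted p = 0.00570). The decoy receptor Bambi rose from 7.09, 5.37 and 5.46 CPM to 10.8 and 11.4. The Wnt count of falls was 7 without WT replicate 1 or 3 and 6 without WT replicate 2. That of TGF-beta and BMP genes was 4 without any 1 WT library.

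Of 10 tested IGF pathway genes 2 fell, Igfbp2 and Htra1 (-0.83 ± 0.13, log2 fold change), and 1 rose. The riser was Igfbp3 (8.66, 5.66 and 4.98 CPM against 18.6 and 19.1; log2 fold change 1.56 ± 0.23, adjusted p = 0.00684). Hedgehog genes fell in 2 of 11, Cdon (-1.10 ± 0.17) and Hhip (-1.49 ± 0.40), and rose in 0. Notch genes rose in 2 of 15 (13.3%, near the 11.5% of all tested genes), Rfng (0.63 ± 0.13) and Notch4 (1.08 ± 0.25), and fell in 0. Retinoic acid genes rose in 3 and fell in 2 of 18 (16.7% and 11.1%, against 11.5% and 8.99% of all tested genes). The receptors Rxra (0.72 ± 0.12), Rara (0.65 ± 0.12) and Rarg (0.60 ± 0.16) were higher, and the synthetic enzymes Aldh1a1 and Aldh1a2 (-1.09 ± 0.29) lower, all as log2 fold changes. Without any 1 WT library the Notch count was 0, the Hedgehog count 1 and the IGF count of falls 2. The retinoic acid count of rises was 0 without WT replicate 1 or 3 and 1 without WT replicate 2. That of falls was 1 without WT replicate 1 or 2.

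Immediate early genes, the first targets of growth factor and stress signals, rose in 6 of 17 tested members and fell in 0. Jun rose from 18.05, 16.3 and 16.5 CPM to 56.7 and 44.7 (log2 fold change 1.58 ± 0.13, adjusted p = 0.000942), and Junb from 158, 155 and 133 CPM to 283 and 308 (log2 fold change 0.99 ± 0.13, adjusted p = 0.00456). Their count was 4 without any 1 WT library. Of 30 cell cycle genes edgeR called 0 in either direction, with 1 higher and 1 lower at an unadjusted p under 0.05, and DESeq2 called 1 lower. The KO libraries differed there. The cell cycle list summed to 474, 632 and 596 CPM in WT against 689 and 401 in KO. The proliferation marker Mki67 measured 23.6, 27.5 and 32.1 CPM in WT against 44.6 and 17.2 in KO. This difference between the KO libraries cannot be tested, since each is 1 library.

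Other metabolic and stress lists held few calls, and each of their counts above 0 moved by over 1.5 times without at least 1 library, between 0 and 10. Of 22 hypoxia and glycolysis genes 3 rose and 3 fell (13.6% each, against 11.5% and 8.99% of all tested genes). The hypoxia-induced carbonic anhydrase Car9 fell from 12.5, 13.4 and 12.5 CPM to 0.955 and 0.694 (log2 fold change -3.99 ± 0.20, adjusted p = 0.000217). The glycolytic regulator Pfkfb3 rose from 16.8, 15.8 and 19.1 CPM to 37.7 and 35.7, and the glucose transporter Slc2a1 from 85.3, 63.5 and 65.2 CPM to 119.7 and 133. Of 18 genes of the unfolded protein response 2 rose and 2 fell. Trib3 fell from 19.3, 18.03 and 15.9 CPM to 3.71 and 2.64 (log2 fold change -2.50 ± 0.20, adjusted p = 0.000807), and Chac1 rose from 72.5, 98.6 and 79.9 CPM to 191 and 173 (log2 fold change 1.12 ± 0.16, adjusted p = 0.00517). Oxidative stress genes rose in 4 and fell in 3 of 22 (18.2% and 13.6%), and heat shock genes rose in 1 and fell in 2 of 12. Cholesterol synthesis genes rose in 2 and fell in 0 of 18. Nuclear genes of oxidative phosphorylation rose in 1 and fell in 2 of 28, and clock genes rose in 1 and fell in 2 of 17.

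Of 3267 protein-coding genes called, 194 lay in 38 runs of at least 4 neighbouring tested genes called in 1 direction, which was not compared with chance. Some runs hold families of related genes, whose reads can be shared between copies. The longest run held 11 rising genes on chromosome 11 from 48826140 to 49135387 (build GRCm38), with the GTPases Irgm1, Tgtp1, Tgtp2 and Ifi47. The next held 10 on chromosome 17 from 34143307 to 34316674, with MHC class II genes and Psmb8, Psmb9, Tap1 and Tap2. A run of 9 on chromosome 1 held the DNA sensor Aim2 and its relatives. Epidermal families formed runs too. On chromosome 3, 7 Sprr2 genes had a median log2 fold change of 3.95, and on chromosome 7, 6 kallikrein proteases, Klk8 to Klk13, had a median of 3.06. Klk8 rose from 2.35, 1.82 and 2.32 CPM to 36.6 and 9.01 (log2 fold change 3.40 ± 0.60, adjusted p = 0.0178), and Klk13 from 0.252, 0.203 and 0.130 CPM to 24.04 and 2.38 (log2 fold change 6.05 ± 1.12, adjusted p = 0.0219). KO replicate 1 was several-fold above KO replicate 2 for both. Of the falling runs, Dcn, Lum, Kera and Epyc are 4 neighbouring proteoglycan genes on chromosome 10 from 97479609 to 97682454, with a median of -3.79. Epyc measured 1.59, 0.937 and 1.10 CPM in WT against 0 and 0.149 in KO (log2 fold change -3.63 ± 0.76, adjusted p = 0.0183).

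Markers of tissues around the cornea differed between libraries. Lacrimal and meibomian gland genes summed to 35.2, 24.1 and 39.5 CPM in WT against 236 and 451 in KO. Of 14 tested 2 rose (14.3%, near the 11.5% of all tested genes). They were the secretory cell factor Bhlha15 (0.454, 0.367 and 0.390 CPM against 1.87 and 5.55) and the peroxidase Lpo (0.959, 0.541 and 1.02 CPM against 6.95 and 39.1). Lpo was not called without WT replicate 2 or 3, and the count was 1 to 2 in the fits without 1 WT library. Photoreceptor genes of the retina summed to 369, 44.6 and 149 CPM in WT against 18.2 and 32.1 in KO. Both KO libraries were below all WT libraries in 17 of the 19 tested, against 26.5% of all tested genes. Of the 19, edgeR called 0, with 10 lower at an unadjusted p under 0.05, while DESeq2, and edgeR without WT replicate 2, each called 12 lower. Lens genes summed to 846, 709 and 384 CPM in WT against 216 and 302 in KO. Of 18 tested 2 fell, Cryab (308, 281 and 227 CPM against 75.0 and 149) and Cryge, with 12 falls without WT replicate 3 and 0 without WT replicate 2. Iris and ciliary body genes summed to 562, 217 and 140.2 CPM in WT against 259.8 and 606 in KO. Skeletal muscle genes summed to 38.3, 55.0 and 43.2 CPM in WT against 44.2 and 106 in KO. Red blood cell genes summed to 392.1, 179 and 379 CPM in WT against 219 and 349 in KO. In these 3 lists the groups overlapped. In the iris, muscle, red blood cell and skin lists edgeR called 0 genes, 3, 1, 0 and 2 members in turn had an unadjusted p under 0.05, and DESeq2 called 1, 1, 0 and 2. Conjunctival and goblet cell genes summed to 1205, 1632 and 1686 CPM in WT against 1669 and 1867 in KO, and 1 of 11 tested, Krt8, fell. The part of these tissues in the differences above was not tested.

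**Figure D4:**
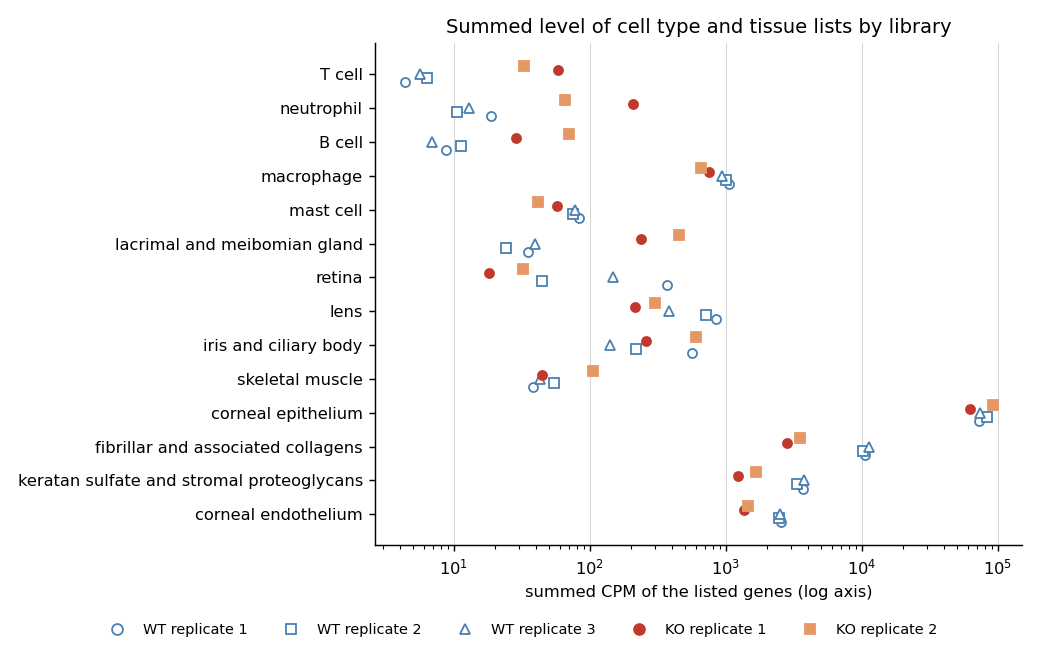
Summed CPM of the genes of 14 cell type and tissue lists in each library, on a log axis; open symbols are WT and filled symbols KO libraries. T cell, neutrophil and gland lists are higher in both KO libraries, collagen and proteoglycan lists lower, the corneal epithelial list overlaps, and the WT libraries of the retina list are spread between 44.6 and 369 CPM.

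Among tested genes averaging 10 CPM or more, the largest ratios between the KO libraries were mostly in secreted gland proteins. Scgb2b2, a secretoglobin, measured 36.5, 14.3 and 32.8 CPM in WT against 16.01 and 1107 in KO. The odorant-binding Obp1a measured 49.7, 15.5 and 43.8 CPM in WT against 20.02 and 1132 in KO. Scgb1b2, Esp15 and Lcn11 had the same pattern, high in KO replicate 2 alone. Bpifa2, a secretory protein of salivary glands, was high in KO replicate 1 alone (0.808, 0.0290 and 0.0433 CPM against 80.6 and 0.116). Dcpp1 (7.88, 0.116 and 0 CPM against 53.5 and 0.165) and Dcpp2 were also high there, and WT replicate 1 held some. Krt16 and S100a9 were above WT in both KO libraries, and higher in KO replicate 1. Of these 10 genes Krt16 was called and the other 9 were not.

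**Figure D5:**
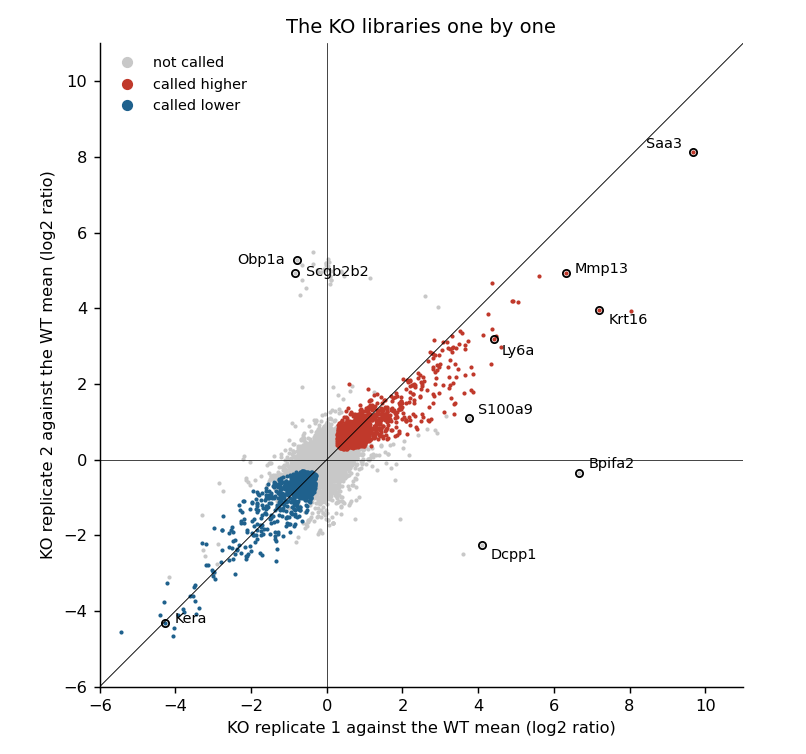
Log2 ratio to the WT mean of KO replicate 1 (horizontal) and KO replicate 2 (vertical) for the 8638 tested genes averaging 10 CPM or more, with 0.5 CPM added to both sides of the ratio; red and blue mark called genes and the line marks equal ratios. Many called genes lie near the line, some called genes such as Krt16 lie well below it, and the secreted gland genes Obp1a and Bpifa2, not called, lie far off it.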

How the data were processed

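The measurements were bulk RNA-seq counts of mouse cornea, and the 5 untreated libraries (3 WT, 2 KO) were analysed. The values are raw counts per gene, deposited by the authors as 1 table for the series; fastp, STAR, featureCounts and the build mm10 are named per the submitters' processing notes, while their versions, the strand setting, the annotation and the handling of multiply mapped reads are not stated there. Some genes are not reported here. Without a stated strand or multi-mapping rule, reads of overlapping genes and near-identical copies cannot be told apart. Per the labels' protocols, libraries came from DNase-treated total RNA by the NEBNext Ultra kit. The 23 names that read as dates (0.0318 to 0.0440% of counts) were left out.

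Counts were filtered with filterByExpr, scaled by TMM and tested with edgeR 4.0.16 (robust quasi-likelihood, R 4.3.3), and p-values were adjusted over all 18006 tested genes by the Benjamini-Hochberg method. A call is an adjusted p under 0.05. CPM values are TMM-scaled, SE belongs to the log2 fold change, and the sum of a list runs over all its genes in the table, tested or not. A total of 25356754 to 104518572 counts per library puts 3 counts, the floor used for genes at 0, at 0.0287 to 0.118 CPM, which covers counting error only. With simulated counts for this comparison (18006 genes), 48, 88, 90 and 94% of 50 genes each changed 2-, 4-, 8- and 16-fold were recovered, and 11.6% of 181 calls were false. Coordinates and lengths come from GENCODE M21 (GRCm38, the assembly of mm10), which matched 31420 of 34165 names, and promoters from RefSeq.

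The members and the gene lists were chosen with earlier results of these data known. The genes named are, per direction, the 10 with the largest fold change (mean of at least 10 CPM) and the 10 with the largest difference per kilobase among called genes, up to 4 called members with the smallest adjusted p per list, and the 5 with the largest ratio between the KO libraries in each direction (mean of at least 10 CPM); other genes were named for their role after their values were seen. The alternatives were other scalings and filters, DESeq2 1.42.0, a test against a fold of 1.5, non-robust dispersion, protein-coding genes alone, a replicate block, all 9 libraries in the fit, and each library left out in turn.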

Additional observations from a re-analysis of the deposited data

How the results depend on the processing

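Against 2062 genes higher and 1619 lower in KO, the counts were 555 and 449 in a test against a fold of 1.5, and 178 and 130 with all 9 libraries in the fit, of which 177 and 130 were among the main calls. Leaving out 1 library gave 699 to 3051 higher and 606 to 3239 lower genes, with more calls without either KO library and fewer without any WT library. Other counts were within 1.5 times of these: 2103 and 1590 with RLE scaling, 1688 and 2032 with upper-quartile scaling, 1816 and 1852 with no filter, 1902 and 1640 with a filter of 1 CPM in 2 libraries, 2690 and 2192 with DESeq2. The labels do not say that replicate numbers pair the samples. Deviations from the group means correlated at -0.131 for number 1 and 0.00700 for number 2. With 2 KO libraries the KO deviations mirror each other, so these values cannot decide on pairing. The fit with the replicate block called 680 and 528. The PBS libraries also differ from the untreated ones in their pseudogene and mitochondrial counts, as given above. The cause of these moves was not tested. Of 215 named genes that were called, 53 were called with all 9 libraries. Named calls were lost for 49, 59 and 62 genes without WT replicates 1, 2 and 3. Of the called named genes 0 changed sign under any alternative run. No called gene overlapped between groups, so a change of sign was hardly possible and its absence is no support. Aire and the 6 listed interferons had too few counts to be tested at this depth.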

Other observations

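The following values were chosen after they were seen. Of the tested genes, 12 had 0 counts in both KO libraries, and edgeR called 10 of them lower. Prr32, on the X chromosome, had 97, 389 and 182 counts in WT and was at least 41.7-fold lower in KO against a floor of 3 counts per library. Arsj, an arylsulfatase, had 27, 51 and 37 WT counts and was at least 8.12-fold lower, and Lgsn, a lens protein related to glutamine synthetase, had 59, 88 and 15 and was at least 10.96-fold lower. Of the other 7 called genes, 5 are predicted genes on chromosome 14 (Gm10409, Gm3002, Gm3020, Gm3453 and Gm3591), of which the first 3 had almost the same counts and may share reads. Conversely, Prl2c2 and Prl2c3, near-identical prolactin-family genes, had 0 counts in WT and the same 13 and 29 counts in KO, at least 8.30-fold higher.

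Protein-coding genes on the X chromosome were more often lower than those on the autosomes: of 483 tested, 42 were higher (8.70%) and 75 lower (15.5%), with a median log2 fold change of -0.12. Of 14133 on the autosomes, 1878 were higher (13.3%) and 1272 lower, with a median of 0.03. Xist was not called. The difference between X and autosomes was not tested.

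Of 2029 processed pseudogenes, 28 were higher (1.38%) and 205 lower (10.1%), with a median log2 fold change of -0.32. Of 14617 protein-coding genes, 1920 were higher (13.1%) and 1347 lower (9.22%), with a median of 0.03. The shares lower are close, and the shares higher differ, a difference that was not tested. Within 5 megabases of Aire on chromosome 10, 23 of 197 tested genes were higher and 14 lower, 18.8% called in either direction against 20.4% of all tested genes.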
